A study of Mus musculus with 6 samples.

Results

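Nlrc5 and 4 genes of MHC class I antigen presentation, B2m, Tap1, Tap2 and Tapbp, were examined in sorted pro-B and pre-B cells of old and young mice. The 5 genes, of 19938 with a probe set of their own, were represented by every probe set that the platform annotation pairs with one of them alone. That gave 23 of 21789 single-gene probe sets, of which 19 were for Nlrc5 and 1 was for each of the other genes. The cells came unmanipulated from old BALB/c mice at 24 months of age, on 3 arrays, and from young BALB/c mice at 2 months, also on 3 arrays. Both ages had the same inbred strain, sort and RNA input, and no allele, transgene or agent is named in the labels. The labels do not say how many mice gave each sample, so standard errors cover only the spread between arrays. Nlrc5 was chosen by the old minus young difference of its brightest probe set, and the other genes were set beside it with the same contrast in view. Their differences are therefore a description, with no test. All levels are log2 of the deposited intensity, and all differences are old minus young on that scale.

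Nlrc5 is a NOD-like receptor protein that enters the nucleus and activates MHC class I genes. It does not bind DNA itself but docks on RFX, NF-Y and CREB/ATF proteins that sit on a conserved promoter module with X and Y boxes. Its own transcription is induced by interferon gamma. B2m encodes beta-2-microglobulin, the light chain shared by class I molecules. Tap1 and Tap2 form the transporter that brings peptides into the endoplasmic reticulum, and Tapbp encodes tapasin, which holds empty class I molecules at that transporter. Lymphocytes carry class I molecules on their surface from early stages on.

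The promoters of B2m, Tap1 and Tapbp are shown because Nlrc5 is known to act through promoters with X and Y boxes. Whether these windows hold a working module was not tested. RefSeq windows on GRCm38.p6, from 250 bases before to 50 after the gene start, matched 3 of the 5 genes. Capitals mark the letters of 4 motifs searched on both strands: CCAAT (the Y box), TGACG (the core of the X2 box), GAAANNGAA (an interferon response core) and GGGNNTTNC (an NF-kB form).
B2m, chr2:122147437-122147736, plus strand: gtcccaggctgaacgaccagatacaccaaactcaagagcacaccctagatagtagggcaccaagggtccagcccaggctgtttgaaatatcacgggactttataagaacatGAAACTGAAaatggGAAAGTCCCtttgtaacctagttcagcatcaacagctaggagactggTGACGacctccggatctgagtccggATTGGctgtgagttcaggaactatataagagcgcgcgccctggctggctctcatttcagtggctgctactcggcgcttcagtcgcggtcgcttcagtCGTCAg
Tap1, chr17:34187306-34187605, plus strand: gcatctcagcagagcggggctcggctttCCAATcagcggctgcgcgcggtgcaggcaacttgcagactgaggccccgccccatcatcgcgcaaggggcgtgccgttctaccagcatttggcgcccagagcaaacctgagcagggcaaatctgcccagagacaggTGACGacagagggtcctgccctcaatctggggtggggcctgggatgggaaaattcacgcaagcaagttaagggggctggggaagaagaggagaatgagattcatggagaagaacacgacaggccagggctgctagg
Tapbp, chr17:33919228-33919527, plus strand: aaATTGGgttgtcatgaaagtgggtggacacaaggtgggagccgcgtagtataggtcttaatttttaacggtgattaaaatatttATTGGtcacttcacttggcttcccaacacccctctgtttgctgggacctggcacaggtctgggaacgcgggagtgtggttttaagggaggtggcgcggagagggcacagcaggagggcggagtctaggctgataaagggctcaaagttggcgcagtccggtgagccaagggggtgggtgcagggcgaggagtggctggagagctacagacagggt

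The B2m window held all 4 motifs, with the interferon response core starting at -139, the NF-kB form at -125, the X2 core at -78 and the Y box at -53 relative to the gene start. A further X2 core, on the other strand, began at 45. Tap1 had a Y box at -222 and an X2 core at -86. Tapbp had Y boxes at -248 and -165, and its window held none of the letters of the other motifs. None of the marked motifs overlapped another. Among 32851 promoter windows of the same length, 37.4% held the Y box letters, 20.8% the X2 core, 8.56% the interferon response core and 15.2% the NF-kB form. Both Y box and X2 core were in 7.73%. These matches are a description of letters and not of bound sites.

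Old replicates 1 and 2 stood apart from the other arrays before any gene was considered. Over all probe sets their correlation with the young arrays was 0.622 to 0.703 and that between them 0.90, whereas for old replicate 3 the correlation with the young arrays was 0.976 to 0.984. The 95th percentile of 1374 probe sets for smell receptor genes (olfactory and vomeronasal), which have no known role in B cells, served on each array as the level of background. This receptor level was 6.31, 6.41 and 5.17 on old replicates 1, 2 and 3 and 4.81, 4.84 and 4.60 on the young arrays. It was exceeded by 15.6%, 14.2% and 43.4% of all probe sets on old replicates 1, 2 and 3, and by 48.5%, 48.3% and 52.5% on the young arrays. Of 13 measured pro-B and pre-B markers, 6, 5 and 12 lay above it on old replicates 1, 2 and 3, and 13 on each young array. Their summed intensity was 3431, 5933 and 10794 on the old and 12204, 11566 and 11427 on the young arrays. Of 7 neutrophil markers, 2, 3 and 7 lay above it on the old arrays and 7 on each young array, with summed intensities of 1930, 4684 and 8077 on the old and 7600 to 9608 on the young arrays. T cell markers above it numbered 0, 1 and 1 of 6 on the old arrays and 0, 1 and 3 on the young arrays, with summed intensities of 162 to 258 on the old and 125 to 161 on the young arrays. For NK markers the numbers were 1, 0 and 2 of 6 on the old and 3 on each of the young arrays, with sums of 139 to 203 on the old and 158 to 234 on the young arrays. Of 7 mature B and plasma cell markers 1, 0 and 6 were above it on the old and 6 on each young array, with sums of 268 to 1326 on the old and 907 to 1312 on the young arrays. Monocyte and macrophage markers above it numbered 1, 0 and 2 of 5 on the old arrays and 2, 2 and 3 on the young arrays, with sums of 244, 183 and 403 on the old and 607, 538 and 1124 on the young arrays. Of 4 dendritic cell markers 1, 0 and 3 were above it on the old and 3, 3 and 4 on the young arrays, with sums of 221 to 248 on the old and 206 to 318 on the young arrays. Of 5 erythroid markers 1, 0 and 3 were above it on the old and 4, 5 and 5 on the young arrays, with sums of 352, 285 and 232 on the old and 208 to 341 on the young arrays. The part of these differences between arrays, and of cells other than the labelled ones, in the results below was not tested, and fewer cells of a type cannot be told apart from less RNA per cell.

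The brightest Nlrc5 probe set, 10574100, was higher on every old array than on every young array. Its level was 10.20, 10.41 and 9.32 on old replicates 1, 2 and 3, and 8.09, 8.12 and 7.85 on young replicates 1, 2 and 3. The old group averaged 9.98 ± 0.58 and the young group 8.02 ± 0.15 (SD, n = 3 each), a difference of 1.96 ± 0.32 (SE), or 3.89-fold. All 6 values lay above the receptor level. On old replicate 3, the array that resembled the young ones, the difference from the young mean was 1.30 ± 0.15 (SE, the lone array being assumed to vary like the young ones). Without old replicate 3 it was 2.29 ± 0.15 (SE). Centring each array on its median gave a difference of 1.61 ± 0.24 (SE). Quantile normalization, which gives each array the same distribution, gave 2.78 ± 0.63 (SE).

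**Figure D1:**
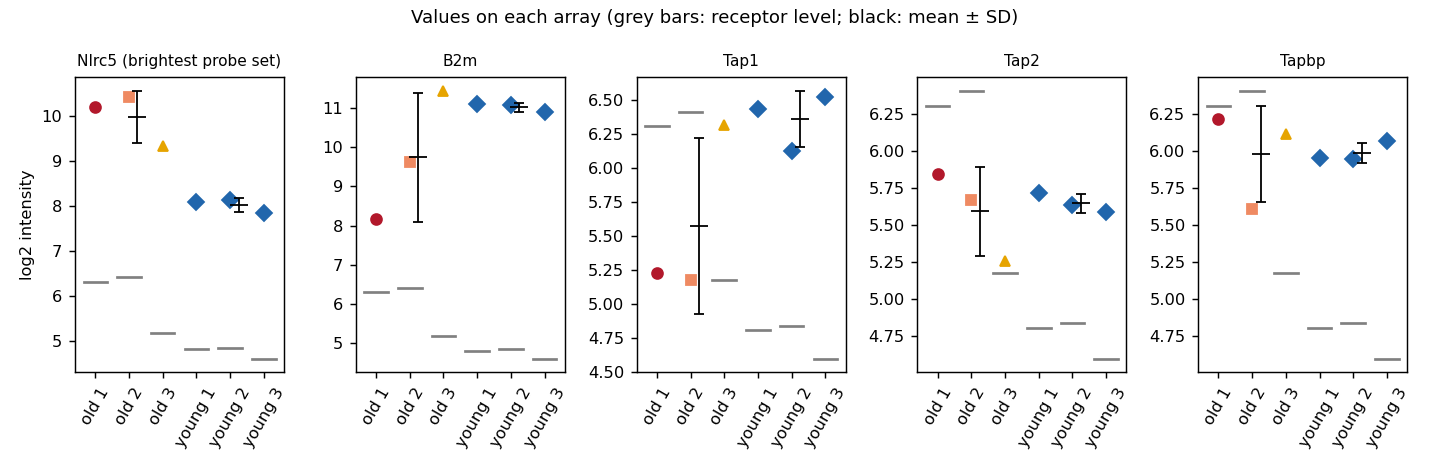
Log2 intensity (y axis, a separate range in each panel) of the brightest Nlrc5 probe set and of B2m, Tap1, Tap2 and Tapbp on the 3 old arrays (left in each panel) and the 3 young arrays (right). Grey bars mark each array's receptor level and black bars the group mean ± SD. Nlrc5 lies at 9.32 or more on the old and 8.12 or less on the young arrays, B2m splits the old arrays between 8.16 and 11.45, and Tap1, Tap2 and Tapbp lie under the receptor level on old replicates 1 and 2.

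The 19 Nlrc5 probe sets did not agree among themselves. Of these, 10 had all old above all young values, 0 had all old below all young, and 9 overlapped. Over the 23410 probe sets tested, 36.1% had all old above all young values and 22.9% all old below all young. The rule used this contrast, so nothing is read from the count. The differences ran from -0.49 to 1.96 with a median of 0.43, and the median over all probe sets tested was 0.35. Many of these 19 differences set background values against background or measured ones, and the lowest, at 10574149, rests on old values that were all within the receptor level. Over the 7 Nlrc5 probe sets above that level on all 6 arrays the differences ran from 0.32 to 1.96 with a median of 1.16, given as a description only. The level was 6.31 and 6.41 on old replicates 1 and 2 and 4.60 to 4.84 on the young arrays. A probe set with young values under 6.31 could pass only by being higher on those old arrays. The filter thus favours positive differences, and nothing is read from their sign. On old replicate 3 alone, 12 of the 19 lay above all young values (41.7% of all probe sets) and 4 below (31.8%). The median difference of the 19 was 0.70, 0.52 and 0.17 on old replicates 1, 2 and 3, against 0.48, 0.43 and 0.05 for all probe sets tested. Centring each array on its median and quantile normalization brought the median over all probe sets tested to 0.00 and 0.05, and that of the 19 Nlrc5 differences to 0.083 and 0.53.

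Brightness separated the probe sets further. Only 7 of the 19 were above the receptor level on all 6 arrays, and 5 were above it on none. These 5, with identifiers 10574135, 10574137, 10574139, 10574143 and 10574145, carry no measured level here. The numbers above it were 8, 7 and 11 on old replicates 1, 2 and 3 and 13, 13 and 14 on young replicates 1, 2 and 3.

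After 10574100, the largest differences were those of 10574141 and 10574157. Probe set 10574141 was at 7.99, 7.97 and 6.75 on the old arrays, against 6.38, 6.12 and 5.89 on the young arrays, a difference of 1.44 ± 0.38 (SE). For 10574157 the old values were 6.96, 7.14 and 6.03 and the young values 5.56, 5.52 and 5.14, a difference of 1.30 ± 0.34 (SE). In both, each old value exceeded each young value, and old replicate 3 was the old array closest to the young ones.

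Probe sets 10574155 and 10574159 were likewise lowest on old replicate 3 among the old arrays. Probe set 10574155 was at 7.58, 6.79 and 6.01 on the old arrays, against 5.62, 5.72 and 5.55 on the young arrays. For 10574159 these were 6.84, 6.81 and 6.24 on the old and 5.47, 5.55 and 5.63 on the young arrays. Their differences were 1.16 ± 0.40 and 1.08 ± 0.24 (SE), and old and young did not overlap. Probe set 10574153 was at 8.03, 7.77 and 6.84 on the old arrays, against 6.78, 6.60 and 6.62 on the young arrays, so that its old replicate 3 exceeded the highest young value only narrowly.

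Other Nlrc5 probe sets ran differently. Probe set 10574102 was highest on old replicate 3, at 6.80, 6.26 and 8.0 on the old arrays against 6.64, 6.57 and 6.56 on the young arrays. Its value on old replicate 2 was within the receptor level. Probe set 10574163 was at 6.58, 6.45 and 5.62 on the old arrays, against 5.89, 5.89 and 5.89 on the young arrays, so old replicate 3 was below the young arrays while the other old arrays were above. At 10574098 the old values were 4.83, 5.01 and 5.05 and the young values 5.39, 4.99 and 5.41, and all old values lay within the receptor level. At 10574149 the old values were 5.56, 4.82 and 4.72 and the young values 5.46, 5.37 and 5.76, again with all old values within it.

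The remaining probe sets were near the background on old replicates 1 and 2. At 10574104 the levels were 5.42, 5.79 and 5.34 on the old and 5.32, 5.26 and 5.37 on the young arrays. At 10574133 they were 6.08, 5.38 and 5.47 on the old and 5.34, 5.39 and 5.40 on the young arrays. At 10574161 they were 5.86, 5.82 and 5.47 on the old and 5.34, 5.27 and 5.28 on the young arrays. In these 3 the values on old replicates 1 and 2 were within the receptor level, and the differences were 0.20, 0.26 and 0.42. Probe set 10574151, at 5.79, 5.55 and 5.15 on the old and 4.50, 4.49 and 4.83 on the young arrays, was above the receptor level on young replicate 3 alone.

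**Figure D2:**
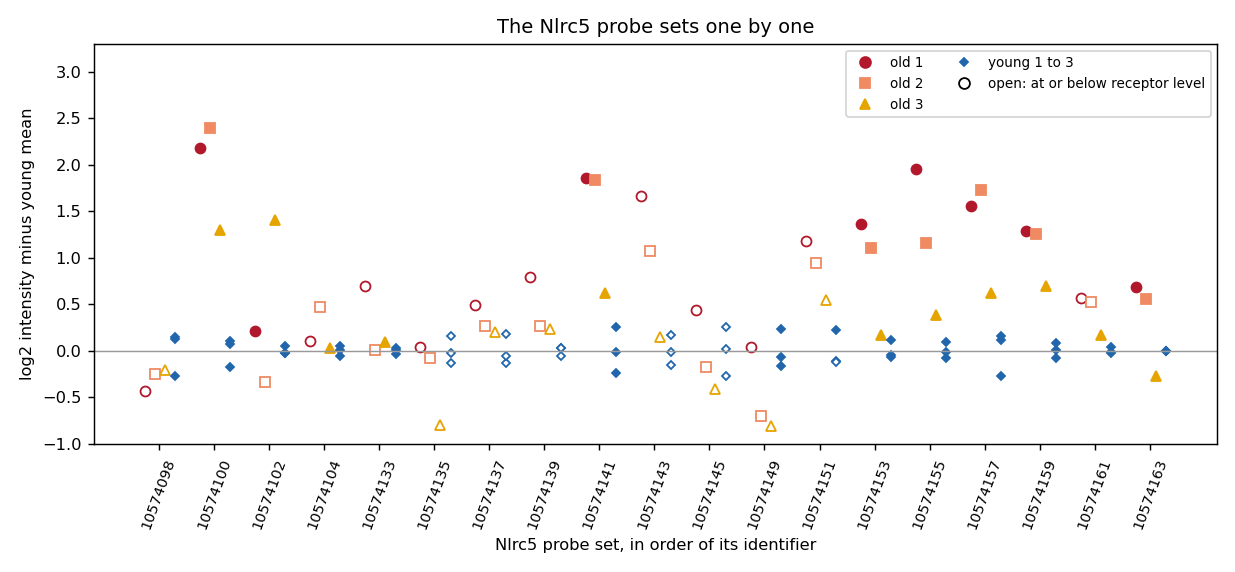
Difference of each array's log2 intensity from the young mean (y axis) for the 19 Nlrc5 probe sets in order of identifier (x axis). Circles, squares and triangles are old replicates 1, 2 and 3, diamonds the young arrays, and open symbols values at or below the array's receptor level. The old arrays reach 2.40 at 10574100, while 10574102 is highest on old replicate 3 (1.41). The lowest symbols, at 10574149 and 10574135, are open and carry no measured old level.

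B2m did not follow the brightest Nlrc5 probe set on old replicates 1 and 2. Its level was 8.16, 9.63 and 11.45 on old replicates 1, 2 and 3, and 11.10, 11.08 and 10.90 on young replicates 1, 2 and 3. The first 2 old arrays were below all young arrays and the third was above all of them, with every value above the receptor level. The old group averaged 9.75 ± 1.65 and the young group 11.03 ± 0.11 (SD, n = 3 each), a difference of -1.28 ± 0.75 (SE). The difference was -2.13 without old replicate 3 and -0.48 without old replicate 1. Against the young mean, old replicate 3 alone differed by 0.43 ± 0.14 (SE). After quantile normalization the difference was -0.17.

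Tap1 was level on old replicate 3 and within the background on the other old arrays. Its level was 5.23, 5.17 and 6.31 on old replicates 1, 2 and 3, and 6.43, 6.12 and 6.52 on young replicates 1, 2 and 3. Old replicate 3 lay within the young range, differing by -0.04 ± 0.17 (SE) from the young mean. The old group averaged 5.57 ± 0.64 and the young group 6.36 ± 0.21 (SD, n = 3 each). The difference of -0.79 ± 0.35 (SE) rests on values of old replicates 1 and 2 that are not above the receptor level.

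Tap2, the partner of Tap1, had a different order of arrays. It stood at 5.85, 5.67 and 5.26 on old replicates 1, 2 and 3, and at 5.72, 5.63 and 5.58 on young replicates 1, 2 and 3. Old replicate 3 was the lowest of the 6 and the other old arrays overlapped the young ones. The mean was 5.59 ± 0.30 in the old and 5.64 ± 0.07 in the young group (SD, n = 3 each), a difference of -0.05 ± 0.23 (SE). Old replicate 3 alone differed by -0.39 ± 0.13 (SE). The Tap2 values of old replicates 1 and 2 were within the receptor level. The sign of the Tap2 difference turned after quantile normalization (0.06) and without old replicate 3 (0.11).

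Tapbp had close group means. Its level was 6.21, 5.61 and 6.11 on old replicates 1, 2 and 3, and 5.95, 5.95 and 6.06 on young replicates 1, 2 and 3. Old replicate 3 was just above the young arrays, and the values of old replicates 1 and 2 were within the receptor level. The means were 5.98 ± 0.32 in the old and 5.99 ± 0.07 in the young group (SD, n = 3 each), a difference of -0.01 ± 0.24 (SE). Old replicate 3 alone differed by 0.12 ± 0.13 (SE). Centring each array on its median gave -0.36 and quantile normalization 0.27, so the Tapbp difference has no direction that holds across scalings. The other 2 probe sets with Tapbp in their annotation are shared with the ribosomal gene Rps3a1 and were left out.

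The class I members thus did not share 1 order of arrays with the Nlrc5 probe sets. On old replicate 3, B2m and Tapbp were above the young arrays, Tap1 was within their range and Tap2 was below it, where the brightest Nlrc5 probe set was above. Of all probe sets tested, 41.7% lay above and 31.8% below the young arrays on old replicate 3. Nothing is therefore read from the side on which a single gene fell. On old replicates 1 and 2, B2m alone of the class I members was measured above the receptor level, and it was below the young arrays. Some heavy chain probe sets, described below, were also above that level there. Of these, H2-Q2 was above the young arrays and the shared probe sets were not. No correlation across arrays is given, because the 6 arrays fall into separate clusters.

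Old replicates 1 and 2 differed from the young arrays in a way that went with the level of a probe set. Probe sets were ranked by young mean into deciles. In the brightest decile, which holds B2m, the median difference was -3.14, -2.76 and -0.17 on old replicates 1, 2 and 3. B2m itself differed by -2.86, -1.39 and 0.43. In the next decile, which holds the brightest Nlrc5 probe set, the medians were -2.09, -1.90 and -0.32, against 2.18, 2.40 and 1.30 for that probe set. In that decile 2.18% of probe sets had old replicates 1 and 2 above all young arrays. The Nlrc5 probe set was chosen by its old minus young difference, so nothing is read from this share or from its distance to the medians. In the decile below it, which holds Tap1, the medians were -0.96, -0.92 and -0.26, against -0.04 for Tap1 on old replicate 3, its values on the other old arrays being within the receptor level. Among dim probe sets the sign was the opposite, at 0.97, 0.92 and 0.17 in the decile with young means from 3.98 to 4.42.

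**Figure D3:**
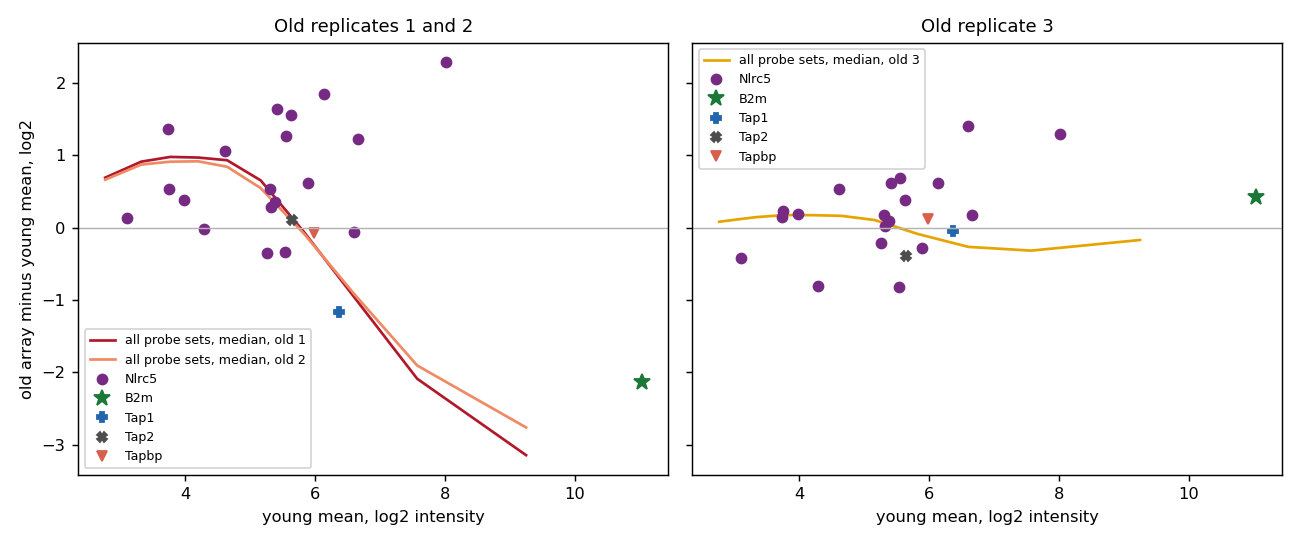
Difference from the young mean on the log2 scale (y axis) against the young mean (x axis), for old replicates 1 and 2 (left, members plotted at the mean of both arrays) and old replicate 3 (right). Lines join the medians of deciles of all 23410 probe sets by young mean, and symbols are the 23 probe sets of the 5 genes. On the left the lines run from up to 0.98 for dim probe sets to -3.14 and -2.76 for the brightest. The brightest Nlrc5 probe set, which was chosen by its difference, lies far above them there. On the right the lines stay between -0.32 and 0.18.

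Rank within the array does not use the scale of the values. The brightest Nlrc5 probe set stood at the 99.5, 99.4 and 95.9 percentiles of old replicates 1, 2 and 3, and at 90.6, 90.7 and 88.2 on young replicates 1, 2 and 3. B2m was among the highest ranks on every array, at 97.4, 98.7 and 99.3 on the old and 98.9, 98.9 and 98.6 on the young arrays. The ranks of this Nlrc5 probe set, which was chosen by its difference, did not overlap between old and young, whereas those of B2m did. Tap1, Tap2 and Tapbp were within the receptor level on old replicates 1 and 2, so no rank is read there. Tap1 ranked at 76.2 on old replicate 3, against 75.7, 72.0 and 75.5 on the young arrays. Tap2 ranked at 58.5 on old replicate 3 and from 64.1 to 66.6 on the young arrays, and Tapbp at 73.4 on old replicate 3 and from 69.7 to 70.3 on the young arrays.

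**Figure D4:**
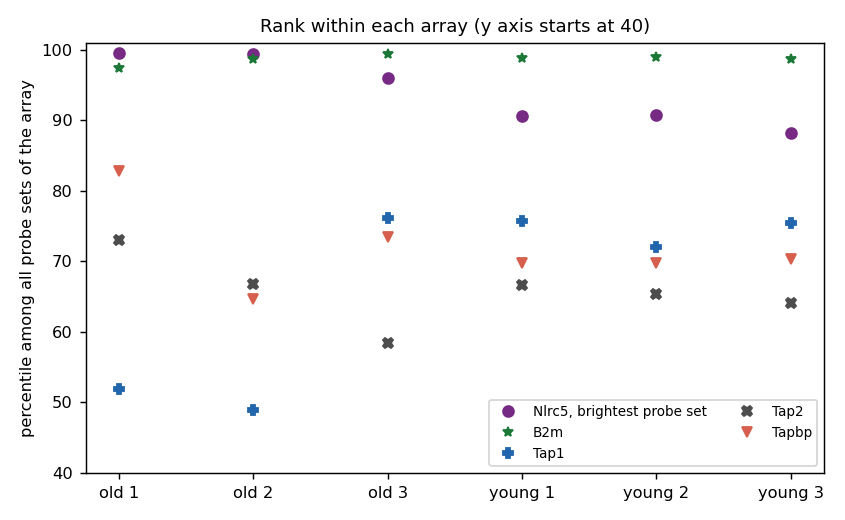
Percentile of each gene's probe set among the 28940 probe sets of the same array (y axis, not starting at 0) on the 3 old arrays (left) and 3 young arrays (right). The brightest Nlrc5 probe set lies at 95.9 or higher on the old and 90.7 or lower on the young arrays, and Tap1 is at 76.2 on old replicate 3. The points of Tap1, Tap2 and Tapbp on old replicates 1 and 2 are ranks of values within the receptor level.

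The genes most like the brightest Nlrc5 probe set were sought among 1572 single-gene probe sets above the receptor level on all 6 arrays. Likeness was the Euclidean distance between profiles of log2 level minus the young mean over the 6 arrays, a small distance meaning a similar profile. The nearest was Eif4e1b, a germ cell relative of the cap-binding factor eIF4E, at a distance of 0.39. Its levels were 7.59, 7.55 and 6.72 on the old arrays and 5.35, 5.49 and 5.48 on the young arrays. Nyx, which encodes the retinal protein nyctalopin, followed at 0.42, and Ifna5, a type I interferon gene, at 0.65. Kncn, which encodes kinocilin of sensory hair cells, was at 0.68 and Vwa3b at 0.70. None of these is a class I gene, but few class I genes were candidates. Tap1, Tap2 and Tapbp were not above the receptor level on all 6 arrays. Of the class I members only B2m could appear, and of the measured heavy chain genes only H2-Q2, so nothing is read from their absence. The 5 nearest genes were picked for their nearness, so the order of arrays they share with Nlrc5 was set by that choice. Eif4e1b and Kncn had young values under the receptor level of old replicates 1 and 2. They could be candidates only by being higher on those arrays. Eif4e1b and Nyx have 2 probe sets each and Vwa3b has 8, and the values here are those of 1.

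For B2m the nearest profiles were those of Rpl38 (distance 0.21), Rps7 (0.32), Hmgb2 (0.32), Rpl23a (0.33) and Rps6 (0.40). All except Hmgb2, a chromatin protein, encode ribosomal proteins. Rpl38 was at 8.28, 9.75 and 11.37 on the old arrays, against 11.19, 11.11 and 11.06 on the young arrays. The 5 genes were picked for their nearness to the B2m profile, so the order of arrays they share with it was set by that choice. They have 3 to 13 probe sets each, and ribosomal protein genes have many near-identical copies, so the copy measured is uncertain.

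Further genes of the class I pathway were described from 4 lists with 80 genes, of which 66 had a probe set of their own. With limma and the Benjamini-Hochberg adjustment over 23410 probe sets, 0 of the 66 passed an adjusted p under 0.05, where 0.0% of all probe sets did. At an unadjusted p under 0.05 there were 39 of the 66 and 10966 of the 23410. Without old replicate 3, 83.3% of the 66 were called, against 82.4% of all probe sets. By direction these were 12 higher and 43 lower of the 66, where 52.2% of all probe sets were called higher and 30.2% lower. The shares over all probe sets are not matched for level. On the old arrays kept in that comparison, the median difference was positive in dim deciles by young mean and negative in the brightest, as described above. No direction particular to the 66 genes is therefore read from these shares. With old replicate 3 as the only old array, 4.55% were called, against 7.0% of all. These 3 genes were Tpp2, a peptidase that trims peptides (-0.59 ± 0.14, SE, adjusted p = 0.0486 with limma), Psmb7 (-0.58 ± 0.13, SE, adjusted p = 0.0449) and Psma7 (-0.64 ± 0.15, SE, adjusted p = 0.0499), both constitutive proteasome subunits. All 3 were lower on old replicate 3, where 5.24% of all probe sets were called lower.

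The heavy chains of class I and class I-like molecules had 14 of 24 genes measured. The median difference was 0.29, against 0.35 over all probe sets, with 9 higher and 5 lower old means and 0 called with limma (5 at an unadjusted p under 0.05). On old replicates 1, 2 and 3, 1, 2 and 6 of the 14 were above the receptor level, and 7 on each young array. The median is thus mostly that of background values. Of the 9 with higher old means, H2-Q10, H2-M2, H2-M5, H2-M9, H2-M10.1, H2-Bl and Hfe were above that level on no array. No rise of this list is read. H2-Q2, the only one above the receptor level on all arrays, was at 6.66, 6.51 and 6.0 on the old arrays, against 6.01, 6.0 and 5.86 on the young arrays. H2-M3, which presents formylated peptides, was at 6.07, 7.29 and 7.76 on the old and 7.24, 7.35 and 7.36 on the young arrays, its value on old replicate 1 being within the receptor level. Old replicate 3 was above the young range for H2-M3 and within it for H2-Q2, and the groups overlapped for both. On old replicates 1 and 2 H2-Q2 was above the young arrays. Its young values were under the receptor level of those old arrays, so it could pass that level there only by being higher. The H2-M3 difference of -0.28 turned to 0.50 after quantile normalization.

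Of the other heavy chain genes, H2-Q4, H2-T24 and H2-T10 were within the receptor level on old replicates 1 and 2, so the size of the difference is not read. On old replicate 3, where they were measured, they differed from the young mean by 0.16 ± 0.15, 0.22 ± 0.13 and 0.32 ± 0.16 (SE), and in each that array was above the young ones. Cd1d1, which presents lipids, was at 4.88, 4.67 and 5.03 on the old arrays, against 6.08, 6.36 and 5.49 on the young arrays. The old Cd1d1 values were all within the receptor level, which leaves a difference of at least 0.02 lower on the log2 scale. This Cd1d1 bound replaces the old values by the receptor level. On old replicate 3 alone, 10 of the 14 heavy chain genes lay above all young values (41.7% of all probe sets) and 2 below (31.8%). Of these 10, all but H2-Q4, H2-T10, H2-T24 and H2-M3 were above the receptor level on no array. The shares over all probe sets are not matched for level, so no excess is read from the 10.

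The classical genes H2-K1 and H2-D1 share their 2 probe sets with each other and with another gene model, so neither can be read alone. Probe set 10444780 was at 5.80, 6.26 and 8.43 on the old arrays, against 8.20, 8.15 and 8.22 on the young arrays. For 10450075 the old values were 6.52, 7.22 and 7.36 and the young values 7.33, 7.36 and 7.17. In both, old replicate 3 was above all young arrays and old replicate 1 was below them, and for 10444780 the values of old replicates 1 and 2 were within the receptor level. A probe set shared by H2-T9, H2-T22 and H2-T10 was at 5.51, 4.58 and 8.12 on the old arrays, against 7.64, 7.64 and 7.83 on the young arrays. Its values on old replicates 1 and 2 were within the receptor level, and old replicate 3 was above the young arrays. The probe set shared by H2-T23 and H2-T-ps was at 6.44, 6.66 and 6.62 on the old arrays, against 6.75, 6.74 and 6.80 on the young arrays, all old below all young. H2-Q6 and H2-Q8 share a probe set at 7.35, 7.22 and 8.04 on the old and 8.26, 8.58 and 7.95 on the young arrays. Quantile normalization turned the sign of the difference for these last 2 shared probe sets, giving 0.57 and 0.39, and for 10450075, giving 0.64. It left the other shared probe sets lower in the old group, at -0.72 for 10444780 and -1.48 for the one of H2-T9, H2-T22 and H2-T10, both resting on background values of old replicates 1 and 2.

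The immunoproteasome and PA28 list holds proteasome subunits, activators and an assembly chaperone. The proteasome cuts proteins into peptides for class I. The median difference of this list was -2.01, with lower old means in 11 of 11 genes and 0 called with limma (9 at an unadjusted p under 0.05). The medians on old replicates 1, 2 and 3 were -2.94, -2.73 and -0.34. All 11 genes lay in the brightest deciles by young mean. Over all probe sets these had medians of -3.14, -2.76 and -0.17 (brightest) and -2.09, -1.90 and -0.32 (next) on the same old arrays. An unadjusted p under 0.05 with limma was reached by 10966 of all 23410 probe sets. No fall particular to this list is read. Of the 11 genes, 5, 5 and 11 were above the receptor level on these arrays, and 11 on each young array. Psmb9, an inducible catalytic subunit, was at 6.93, 7.81 and 9.45 on the old and 9.61, 9.5 and 9.79 on the young arrays. It is the neighbour of Tap1 on the opposite strand, and the Tap1 window above reaches into Psmb9. Psmb9 was measured and below the young arrays on old replicates 1 and 2, where Tap1 was within the receptor level, and old replicate 3 was just below the young range for Psmb9 and within it for Tap1. Psmb10, another inducible subunit, stood at 7.71, 7.0 and 7.21 on the old and 7.59, 7.70 and 7.51 on the young arrays, overlapping between the groups, and its difference of -0.30 turned to 0.81 after quantile normalization.

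Psme1, a subunit of the PA28 activator, was at 7.23, 7.41 and 9.99 on the old and 9.87, 9.88 and 9.91 on the young arrays. Pomp, a proteasome assembly chaperone, had the lowest difference of this list, -3.81 ± 1.35 (SE), and was at 4.70, 4.33 and 9.72 on the old and 10.01, 10.02 and 10.15 on the young arrays. Psma7, Psmb7 and Psme3, an alternative activator, differed by -3.01 ± 0.93, -2.90 ± 0.94 and -2.48 ± 0.91 (SE). For Pomp, Psma7, Psmb7 and Psme3 the values of old replicates 1 and 2 were within the receptor level. In each of these 4, old replicate 3 was below the young arrays.

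Peptide loading and trimming genes had a median difference of -1.64, with 13 of 14 old means lower and 0 called with limma (9 at an unadjusted p under 0.05). On old replicates 1, 2 and 3 the medians were -2.47, -2.15 and -0.21. Only 3 and 1 of the 14 genes were above the receptor level on old replicates 1 and 2, against 13 on old replicate 3 and 14 on each young array, so the first 2 medians are mostly those of background values. Most of the 14 genes lay in the brightest deciles by young mean. Over all probe sets the median difference was -2.06 in the brightest decile and -1.46 in the next. No fall particular to this list is read. Canx, which encodes the chaperone calnexin, was at 4.59, 5.44 and 9.86 on the old arrays, against 9.93 to 10.18 on the young arrays. Pdia3, the disulfide isomerase of the loading complex, was at 4.72, 5.73 and 8.60 on the old and 8.52, 8.57 and 9.03 on the young arrays. Both were within the receptor level on old replicates 1 and 2, and near or inside the young range on old replicate 3. Blmh, a peptidase, and Bcap31, an endoplasmic reticulum transport protein, differed by -2.67 ± 0.93 and -2.53 ± 0.77 (SE), again with old replicates 1 and 2 within the receptor level, so that the size rests on background. They differed by -0.31 ± 0.14 and -0.61 ± 0.15 (SE) from the young mean on old replicate 3. Thop1, a peptide-degrading enzyme, had the only higher old mean, 0.15 ± 0.24 (SE), with all old values within the receptor level and a quantile-normalized difference of -0.04.

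The MHC enhanceosome and regulators list, which holds the partners of Nlrc5 on DNA, had 27 of 29 genes measured. Its median difference was -0.73, with 21 lower and 6 higher old means and 0 called with limma (16 at an unadjusted p under 0.05). The medians on old replicates 1, 2 and 3 were -1.06, -1.13 and -0.12. On old replicates 1 and 2 only 2 of the 27 genes each were above the receptor level, against 22 on the remaining old array and 23 to 25 on the young arrays, so the first 2 medians are mostly those of background values. The 21 lower genes lay in deciles by young mean whose median differences over all probe sets were negative, from -0.09 to -2.06. The 6 higher genes lay in deciles with positive medians. No fall particular to this list is read. Atf1, alone of this list above the receptor level on all 6 arrays, was at 7.98, 8.07 and 8.30 on the old arrays. Its young values were 8.61, 8.63 and 8.84. The Atf1 difference of -0.58 turned to 0.67 after quantile normalization. Creb1, a DNA-binding partner, was at 5.24, 5.5 and 8.69 on the old and 9.03, 8.94 and 9.04 on the young arrays. Irf2, an interferon regulatory factor, was at 4.84, 5.41 and 9.22 on the old and 9.20, 9.18 and 9.15 on the young arrays. Old replicate 3 was below the young range for Creb1 and just above it for Irf2. Ezh2, a histone methyltransferase, and Jak1, a kinase of interferon receptors, differed by -3.09 ± 1.04 and -2.58 ± 0.93 (SE). Creb1, Irf2 and Jak1 were within the receptor level on old replicates 1 and 2, and Ezh2 on old replicate 1, so the sizes rest on background. Ezh2 and Jak1 differed by -0.44 ± 0.15 and -0.24 ± 0.14 (SE) from the young mean on old replicate 3.

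Ciita, the relative of Nlrc5 that activates class II genes, was at 5.24, 5.64 and 5.33 on the old and 5.31, 5.18 and 5.02 on the young arrays, overlapping between the groups, with old replicates 1 and 2 within the receptor level. Other NOD-like receptor genes were close to the background. Nlrx1 (difference 0.88 ± 0.32, SE) and Nod2 (0.71 ± 0.26, SE) had all old values above all young values, but every old value was within the receptor level, so no size is read. Nlrc3 differed by 0.22 ± 0.28 (SE), with every old value within it, and by -0.22 after quantile normalization.

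**Figure D5:**
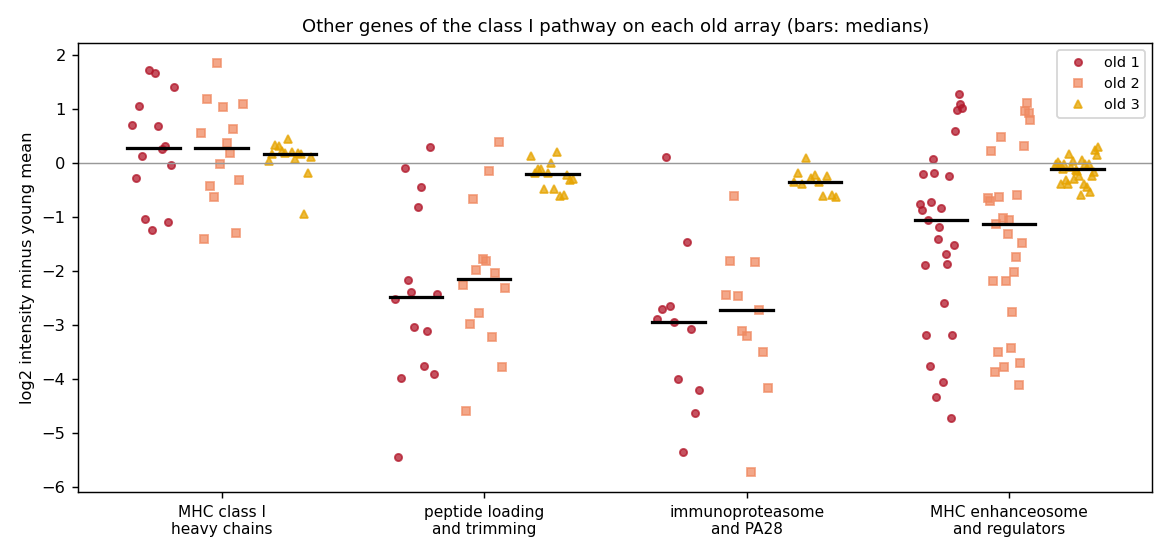
Difference of each gene's log2 intensity from its young mean (y axis) on old replicates 1, 2 and 3 (circles, squares and triangles) for 4 lists of further class I pathway genes (x axis), with black bars for list medians. The immunoproteasome medians lie at -2.94 and -2.73 on old replicates 1 and 2 and at -0.34 on old replicate 3, and the heavy chain medians at 0.28, 0.27 and 0.17. On old replicates 1 and 2 most values of each list are within the receptor level.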

How the data were processed

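Each of 6 arrays, 3 old and 3 young, received amplified material from 100 ng of RNA of sorted pro-B and pre-B cells, per the labels. The deposited table holds linear probe set intensities for 28940 probe sets that the authors made with RMA, per the submitters' processing notes. Its version and settings, and a genome build, are not stated there. Intensities ran from 3.58 to 8502, and log2 was taken of them. The platform annotation pairs 21789 probe sets with 1 gene and 23410 with at least 1. On these 23410 the age groups were compared with limma 3.58.1 (R 4.3.3), 2-sided, with Benjamini-Hochberg adjustment. Python 3.11.15 and pandas 2.3.3 made the tables.

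The members and the 4 lists were chosen with earlier results of these data known. A listed gene is given by its brightest single-gene probe set. The text names all members and, per list, up to 4 genes with the largest higher and up to 4 with the largest lower difference among those above the receptor level on at least 1 array, plus the 5 nearest profiles. Psmb9, Psmb10, Psme1, Tpp2, Atf1 and the shared heavy chain probe sets lie outside this rule and were added after their values were seen. Precision is limited by the number of arrays.

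Old and young arrays share replicate numbers in their titles. For arrays with the same number, the correlation of their deviations from the mean of their own group was 0.157, 0.15 and 0.279 for numbers 1, 2 and 3, each over 0.1, the limit for treating numbers as a pairing. The labels name no shared litter or day, and for old replicate 1 with young replicate 2 the value was 0.153. Alternatives were a replicate block, other scalings, filters, thresholds, array weights and leaving out arrays.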

Additional observations from a re-analysis of the deposited data

How the results depend on the processing

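The count of called probe sets was 0 with limma (10966 at an unadjusted p under 0.05) and ranged from 0 to 19285 when arrays were left out one at a time, old replicate 3 giving the 19285. It was 19998 with array weights and 1638 without old replicates 1 and 2. Of the 66 pathway genes, 0 were called, 0 to 55 when one array was left out, 59 with array weights and 3 without old replicates 1 and 2. Both counts stayed at 0 with the replicate number as a block. Each number occurs once per age, so this block cannot change a difference, only its SE. The SE fell from 0.75 to 0.63 for B2m, from 0.35 to 0.32 for Tap1 and from 0.32 to 0.30 for the brightest Nlrc5 probe set. It rose from 0.23 to 0.28 for Tap2 and from 0.24 to 0.29 for Tapbp. The brightest Nlrc5 probe set (1.96) ranged from 1.74 to 2.29 with one array left out. It was 1.61 after median centring, 2.78 after quantile normalization and 1.30 without old replicates 1 and 2. The Nlrc5 median (0.43) ranged from 0.34 to 0.54, and was 0.083 after median centring, which takes the same amount off each difference, 0.53 after quantile normalization and 0.17 without old replicates 1 and 2. B2m (-1.28) ranged from -2.13 to -0.48 and was 0.43 without old replicates 1 and 2. Tap1 (-0.79) ranged from -1.16 to -0.59 and was -0.044 without them. Tap2 (-0.05) ranged from -0.18 to 0.11, and was -0.40 after median centring and -0.39 without old replicates 1 and 2. Tapbp (-0.01) ranged from -0.13 to 0.18, and was -0.36 after median centring, 0.27 after quantile normalization and -0.30 with array weights. Without old replicates 1 and 2 a single old array is left, assumed to vary like the young ones. The cause of these shifts was not tested.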
